A study of Sus scrofa with 24 samples.

Results

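DNA methylation and Polycomb repression are silencing systems of chromatin, and their regulators were followed here in pig tissue across 4 stages, from late gestation into postnatal life. The genes of interest were DNMT1, DNMT3A, DNMT3B, UHRF1, EZH2, TET1, TET2, TET3 and HDAC1. A probe set, the group of short oligonucleotides that reads a transcript on the array, was taken for a gene when the platform annotation gave it that gene's symbol and no other. By this rule 5 of the 9 genes were measured, with 8 probe sets, among 6765 annotated genes and 23935 tested probe sets. DNMT1 had 4 probe sets, and DNMT3A, DNMT3B, EZH2 and HDAC1 had 1 each. UHRF1, TET1, TET2 and TET3 were not analysed here. A further probe set was annotated to both EZH2 and AKAP9 and was left out for that reason.

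Messenger RNA was measured in 24 offspring of German Landrace gilts, 1 Affymetrix Porcine Genome array per animal, with 6 animals at each stage. The stages were 94 dpc (days post conception, late gestation) and 1 dpn, 28 dpn and 188 dpn (days post natum, counted from birth). All 24 animals came from gilts on the gestational high protein (HP) diet, so the comparisons are between stages and none is between diets. The offspring of 3 gilts were collected per stage, and animals that share a mother are not named in the labels and are not independent. Sex and array batch are likewise not in the labels, and p-values measure only the spread between these animals, treated as independent. Liver is the tissue in the sample labels, but the title of the series speaks of muscle. The median of 15 measured skeletal muscle genes of 17 listed lay between the 99.6 and 99.9 percentile of the probe sets in all 24 arrays, whereas the median of 12 plasma protein genes of hepatocytes, of 13 listed, lay between the 19.9 and 98.5 percentile. The arrays thus carried skeletal muscle transcripts at a high level throughout, whereas plasma protein transcripts were high in some arrays and low in others.

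DNA methyltransferases add methyl groups to cytosines that stand before guanines. DNMT1 copies existing methylation to the new strand after replication, with UHRF1 as the protein that recruits it, while DNMT3A and DNMT3B set new methylation and the TET enzymes oxidise it as a step to its removal. EZH2 is the catalytic subunit of Polycomb repressive complex 2 (PRC2), which methylates lysine 27 of histone H3. HDAC1 is a class I histone deacetylase that works in the Sin3, NuRD and CoREST corepressor complexes. In skeletal muscle, EZH2 is known for its high level in proliferating myogenic cells and its decline on differentiation, and HDAC1 for binding MyoD in undifferentiated myoblasts.

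Values are the deposited intensities in scaled units, and levels of a stage are geometric means of its 6 arrays. They can be compared between stages for a probe set but not between probe sets. A background level of 74.7 was taken from the 17 Tag controls, as the 95th percentile of their values. Differences are log2 of the stage named first over the stage named second ± SE, from a limma fit over all 24 arrays, and a difference is called at an adjusted p of at most 0.05. Each gene is represented by its brightest probe set unless another is named.

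DNMT1, EZH2 and HDAC1 were lower at 188 dpn than at 94 dpc under each of 3 scalings of the arrays, DNMT3A passed as lower there as deposited but not after rescaling, and DNMT3B passed in no comparison. Over the 4 stages, 4 of 5 genes changed by the F test, all but DNMT3B, against 65.1% of all annotated genes. At 188 dpn against 94 dpc 4 of 5 genes were lower and 0 higher, while 30.2% of annotated genes were lower, 19.9% were higher and 50% differed in either direction. At 1 dpn against 94 dpc 2 of 5 genes fell, against a background of 20.7% lower, 17.1% higher and 37.8% in either direction. At 28 dpn against 1 dpn 1 of 5 fell, where 13.4% of genes were lower, 13.3% higher and 26.7% differed in all. At 188 dpn against 28 dpn 3 of 5 fell, where 14.3% were lower, 6.16% higher and 20.4% differed in all. At 28 dpn against 94 dpc 3 of 5 fell, beside 20.2% lower, 16.7% higher and 36.9% in either direction, and at 188 dpn against 1 dpn 3 of 5 fell, beside 27.5% lower, 17.4% higher and 44.8% in either direction. No test set these counts of 5 genes apart from the backgrounds, and the description rests on the values of the single genes. The interval between 94 dpc and 1 dpn holds the end of gestation as well as birth, which cannot be told apart here. In bulk tissue, fewer cells of a type and less RNA per cell cannot be told apart.

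The 5′ signal of the control transcripts, a sign of RNA quality, moved with stage too. The 5′ to 3′ ratio of EF1A was 0.988 to 1.05 at 94 dpc, 0.0963 to 0.703 at 1 dpn, 0.638 to 0.696 at 28 dpn and 0.512 to 0.656 at 188 dpn. Every fetal array was thus above every postnatal array by this ratio, and 28 and 188 dpn overlapped. For GAPDH the ratio was 0.780 to 0.870 at 94 dpc, 0.424 to 0.996 at 1 dpn, 0.614 to 0.736 at 28 dpn and 0.624 to 0.725 at 188 dpn. Both ratios were lower at 28 and 188 dpn than at 94 dpc without overlap, as were the levels of DNMT1, EZH2 and HDAC1, and their part in these falls was not tested.

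**Figure D1:**
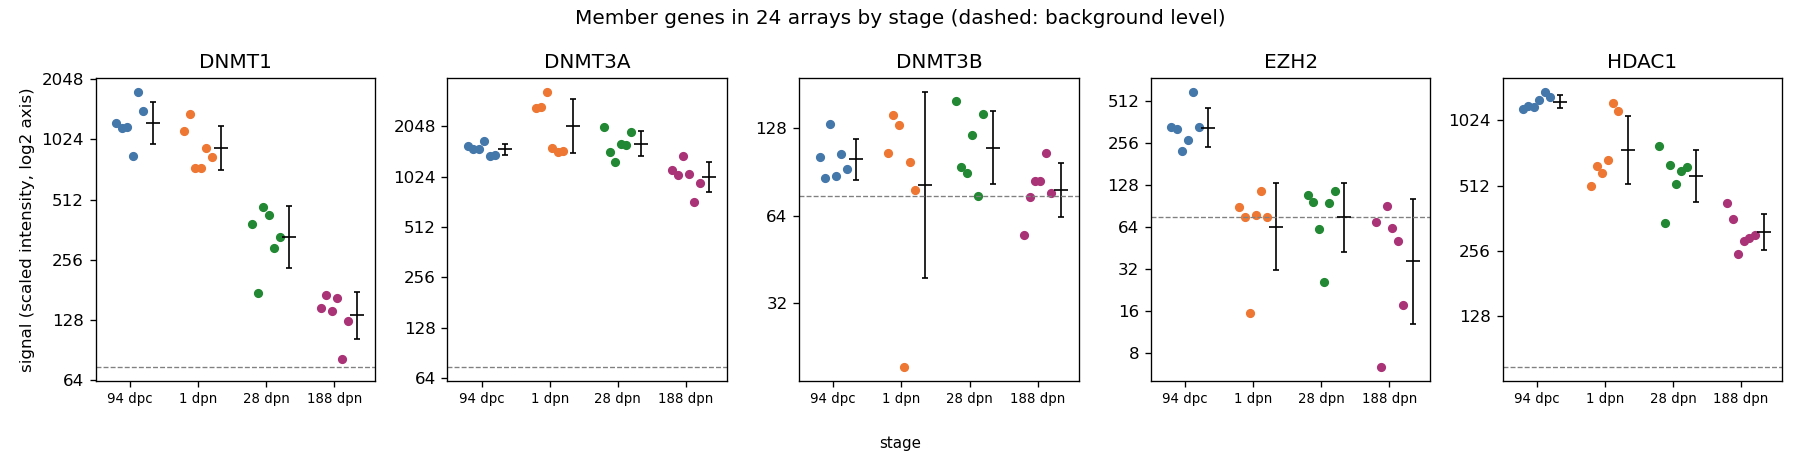
Signal intensity (log2 axis, scaled units) of DNMT1, DNMT3A, DNMT3B, EZH2 and HDAC1 in the 4 stages. Points are single arrays, 6 per stage, black bars give the geometric mean ± SD of the log2 values, and the dashed line is the background level of 74.7. DNMT1 steps down after 1 dpn, EZH2 lies around background after birth, and DNMT3B stays close to background throughout.

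DNMT1, the maintenance methyltransferase, was lower at 28 dpn than at 1 dpn and lower again at 188 dpn by its brightest probe set. This probe set ranged from 849 to 1762 with a median of 1207 at 94 dpc, from 734 to 1371 with a median of 879 at 1 dpn, from 175 to 472 with a median of 360.1 at 28 dpn and from 81.5 to 171 with a median of 144 at 188 dpn. Every animal of 28 dpn lay below every animal of 94 dpc and 1 dpn, and every animal of 188 dpn lay below every animal of 28 dpn. The ranges of 1 dpn and 94 dpc overlapped. All 24 values were above background.

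DNMT1 averaged 135 at 188 dpn, with an SD of 0.39 on the log2 scale, against 1237 with an SD of 0.35 at 94 dpc. This is a difference of -3.20 ± 0.24, or 9.16-fold lower (95% interval -3.70 to -2.69, adjusted p = 6.03e-10). By interval, DNMT1 was lower at 28 dpn than at 1 dpn, with means of 332 and 928 (-1.48 ± 0.24, adjusted p = 0.000154), and lower again at 188 dpn than at 28 dpn (-1.30 ± 0.24, adjusted p = 0.000712). At 1 dpn against 94 dpc the difference was -0.41 ± 0.24 and did not pass (adjusted p = 0.211), with an interval from -0.92 to 0.09. Within 1 dpn the 3 arrays with the lowest EF1A ratio averaged 1041 (734 to 1371), and the other 3 averaged 827 (735 to 926). The part of the 5′ signal in these DNMT1 values was not tested. The order of the levels was therefore 94 dpc, 1 dpn, 28 dpn, 188 dpn, where the neighbours 94 dpc and 1 dpn did not differ beyond their spread.

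The other probe sets of DNMT1 agreed in part. The next brightest averaged 442 at 94 dpc, 235 at 1 dpn, 144 at 28 dpn and 30.9 at 188 dpn, where none of the 6 animals was above background. It differed at 188 dpn against 94 dpc by at least 5.92-fold (-3.84 ± 0.39, adjusted p = 5.17e-08) and at 188 dpn against 28 dpn by at least 1.93-fold (-2.22 ± 0.39, adjusted p = 0.000446), where the ranges overlapped. In contrast to the brightest probe set, it showed no called step at 28 dpn against 1 dpn (-0.71 ± 0.39, adjusted p = 0.226). At 1 dpn against 94 dpc its difference was -0.91 ± 0.39 (adjusted p = 0.0826). Both probe sets thus had their lowest values at 188 dpn, but they placed the earlier part of the decline differently.

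The remaining 2 DNMT1 probe sets lay near or under background. The brighter of them averaged 69.4, 16.5, 42.3 and 15.9 in order of age, with 2 animals above background at 94 dpc, 1 at 1 dpn, 2 at 28 dpn and 0 at 188 dpn. It passed the threshold at 1 dpn against 94 dpc (adjusted p = 0.0449) and at 188 dpn against 94 dpc (adjusted p = 0.0317), but since all stage means were under background no fold is given. The dimmest averaged 20.5, 29.8, 17.0 and 7.83 and passed in none of the 6 comparisons. When the mean log2 value of all 4 probe sets stood for DNMT1, the difference at 28 dpn against 1 dpn was -0.41 (adjusted p = 0.605) and that at 28 dpn against 94 dpc was -1.13 (adjusted p = 0.0726), so these 2 calls depended on the choice of probe set.

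**Figure D2:**
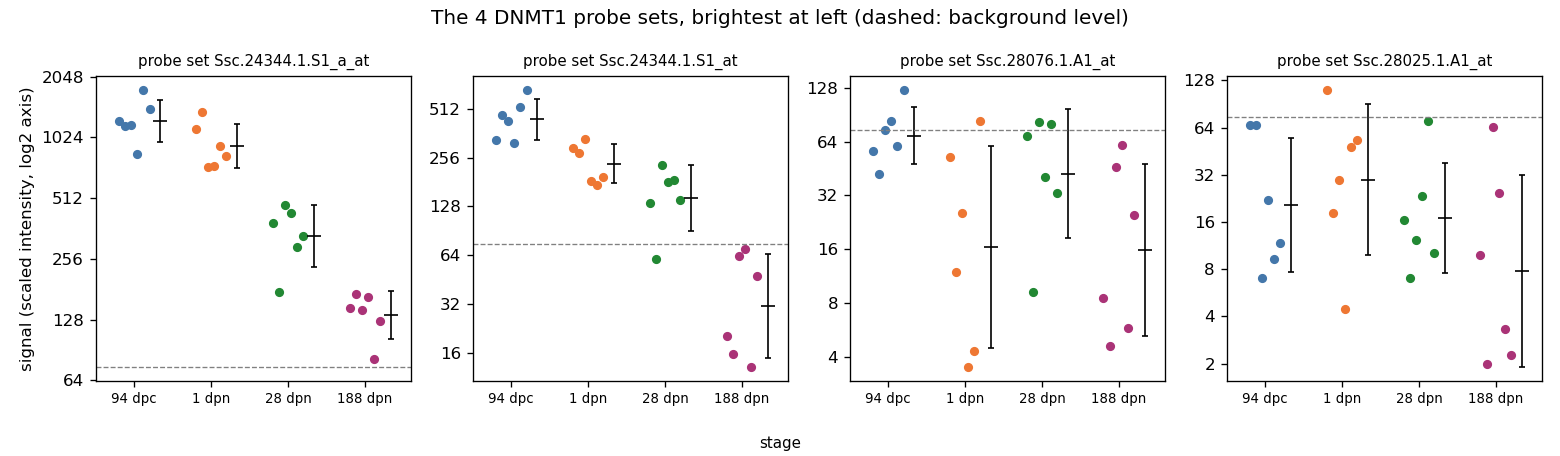
Signal intensity (log2 axis, scaled units) of the 4 DNMT1 probe sets by stage, the brightest on the left. Points are single arrays, black bars the geometric mean ± SD of the log2 values, and the dashed line the background level of 74.7. The 2 brighter probe sets fall to 135 and 30.9 at 188 dpn, and the other 2 scatter near or below background at every stage.

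DNMT3A, a de novo methyltransferase, stayed well above background at every stage and had its lowest mean at 188 dpn. It ranged from 1364 to 1676 with a median of 1497 at 94 dpc, from 1438 to 3267 with a median of 2064 at 1 dpn, from 1249 to 2011 with a median of 1589 at 28 dpn and from 725 to 1357 with a median of 1051 at 188 dpn. All animals of 188 dpn lay below all animals of 94 dpc and of 1 dpn, while the ranges of 188 and 28 dpn overlapped. DNMT3A averaged 1022 at 188 dpn against 1608 at 28 dpn (-0.65 ± 0.21, adjusted p = 0.0345), and 1022 at 188 dpn against 2039 at 1 dpn (-0.997 ± 0.21, adjusted p = 0.000547).

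Against the fetal level of 1490 the fall of DNMT3A at 188 dpn was 1.46-fold (-0.54 ± 0.21, adjusted p = 0.0384). This fall depended on the scaling. It was -0.44 after quantile normalization (adjusted p = 0.0931) and -0.01 after each array was centred on its median (adjusted p = 0.979). The fall at 188 dpn against 28 dpn was -0.62 with quantile normalization (adjusted p = 0.0478) and -0.39 with centring (adjusted p = 0.258). Single animals decided both calls as well. The call at 188 dpn against 94 dpc was lost without animal 1, 2, 3 or 4 of 94 dpc or animal 2, 4, 5 or 6 of 188 dpn (adjusted p 0.0526 to 0.101). That at 188 dpn against 28 dpn was lost without animal 1, 4, 5 or 6 of 28 dpn or animal 2, 4, 5 or 6 of 188 dpn (adjusted p 0.0502 to 0.0858). The levels ran from 1 dpn, 28 dpn and 94 dpc down to 188 dpn, and as deposited no 2 of the 3 earlier stages differed beyond their spread.

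The 1 dpn values of DNMT3A differed between arrays of unlike 5′ signal. Animals 1, 2 and 3 stood at 2621, 2681 and 3267, and animals 4, 5 and 6 at 1507, 1438 and 1446. The arrays of animals 1 to 3 had a low 5′ signal: the 5′ to 3′ ratio of the control transcript EF1A was 0.0963 to 0.135 in them and 0.670 to 0.703 in the other 3. Without these 3 arrays the difference at 1 dpn against 94 dpc was -0.03 (adjusted p = 0.941), whereas with them it was 0.45 ± 0.21 (adjusted p = 0.101). Within 1 dpn DNMT3A was thus higher in the arrays where the 5′ ratio was lower, and the part of that ratio in the DNMT3A value was not tested. DNMT3A was still called lower at 188 dpn than at 1 dpn without these arrays, at -0.52 (adjusted p = 0.0360).

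**Figure D3:**
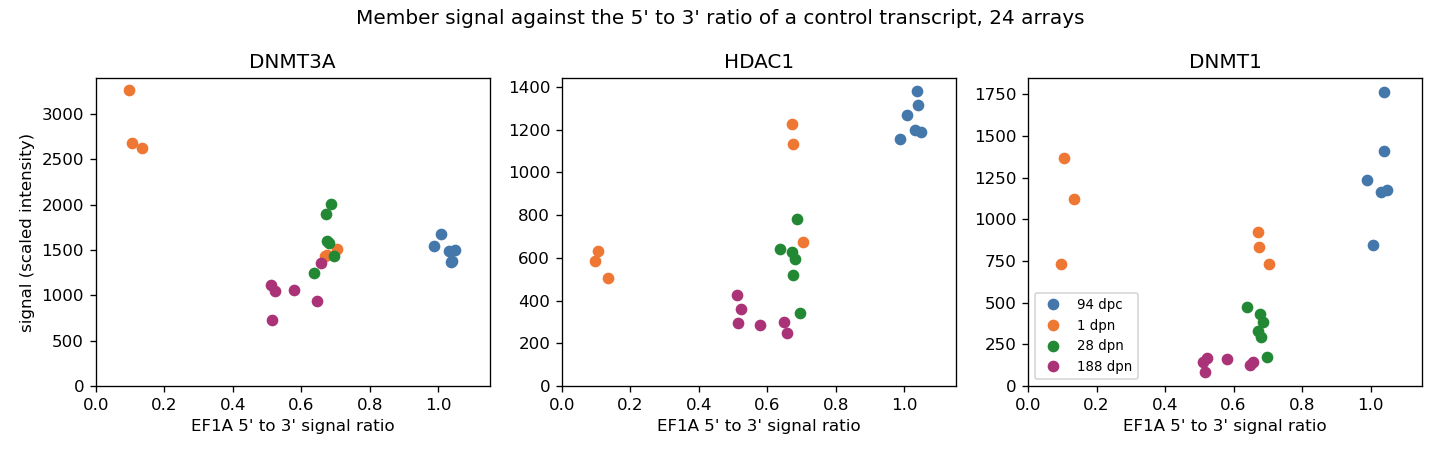
Signal intensity (scaled units) of DNMT3A, HDAC1 and DNMT1 against the 5′ to 3′ ratio of the control transcript EF1A in the 24 arrays, coloured by stage. The 3 arrays of 1 dpn at ratios of 0.0963 to 0.135 stand apart from the rest, with DNMT3A at 2621 to 3267 and HDAC1 at 508 to 632.

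DNMT3B, the other de novo enzyme, was close to background and showed no called difference in any comparison. It ranged from 86.0 to 133 with a median of 97.4 at 94 dpc, from 19.3 to 142 with a median of 102 at 1 dpn, from 75.0 to 158 with a median of 108 at 28 dpn and from 54.9 to 105 with a median of 80.2 at 188 dpn. The ranges of all stages overlapped. At 188 dpn the mean was 78.3 against 99.8 at 94 dpc (-0.35 ± 0.34, 95% interval -1.06 to 0.36, adjusted p = 0.460), and this difference was 0.10 with quantile normalization and 0.18 with centring. Within 1 dpn the 3 arrays of low 5′ signal read 105 to 142 and the other 3 read 19.3 to 98.0. Without those 3 arrays the difference at 1 dpn against 94 dpc was -0.92 (adjusted p = 0.0788), where it was -0.29 with them (adjusted p = 0.564), and that at 28 dpn against 1 dpn was 1.05 (adjusted p = 0.0703), where it was 0.43 with them (adjusted p = 0.427). Of the 3 arrays then left, animal 4 stood at 19.3, under background, and animals 5 and 6 at 98.0 and 78.3. Both shifts thus rest largely on 1 low value, and the part of the 5′ signal in these values was not tested. The signal near background limits what this probe set can show.

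EZH2 was lower at all 3 postnatal stages than at 94 dpc, and lay around background there. It ranged from 225 to 588 with a median of 325 at 94 dpc, from 15.5 to 115 with a median of 76.8 at 1 dpn, from 25.7 to 115 with a median of 95.6 at 28 dpn and from 6.35 to 90.6 with a median of 57.0 at 188 dpn. Every fetus was above every postnatal animal, and the 3 postnatal ranges overlapped. All 6 fetuses were above background, as were 5 animals of 1 dpn, 4 of 28 dpn and 1 of 188 dpn.

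At 1 dpn against 94 dpc the mean of EZH2 was 64.2 against 328, at least 3.93-fold lower (-2.35 ± 0.57, adjusted p = 0.00289). At 28 dpn it was 75.1, at the background level, and also lower than at 94 dpc (-2.13 ± 0.57, adjusted p = 0.00684). With values under background set to that level this difference was -1.82. At 188 dpn it was 36.2, at least 4.25-fold lower than at 94 dpc (-3.18 ± 0.57, adjusted p = 8.35e-05). None of the 3 comparisons among the postnatal stages passed. They gave 0.23 ± 0.57 at 28 dpn against 1 dpn (adjusted p = 0.833), -1.05 ± 0.57 at 188 dpn against 28 dpn (adjusted p = 0.246) and -0.83 ± 0.57 at 188 dpn against 1 dpn (adjusted p = 0.284). Postnatal values lay around the background level, so a further decline after birth was not detectable. Within 1 dpn the 3 arrays of low 5′ signal read 15.5 to 88.9 and the other 3 read 75.3 to 115, and without those 3 arrays the difference at 1 dpn against 94 dpc was -1.90 (adjusted p = 0.0379). The highest EZH2 value, 588, and the highest DNMT1 value, 1762, came from the same fetus, animal 5 of 94 dpc. In that array the median of 6 measured macrophage and leukocyte genes of 10 listed was 611, where the remaining 5 fetuses had 222 to 259. Its skeletal muscle median was 21972, where theirs was 32902 to 38209. With each of the 24 animals left out in turn, this fetus included, the difference at 188 dpn against 94 dpc ranged from -3.44 to -2.68 for EZH2 and from -3.30 to -3.05 for DNMT1.

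HDAC1 fell between 94 dpc and 188 dpn. It ranged from 1155 to 1383 with a median of 1232 at 94 dpc, from 508 to 1226 with a median of 653 at 1 dpn, from 344 to 783 with a median of 611 at 28 dpn and from 248 to 425 with a median of 297 at 188 dpn. The fetal range lay above those of 28 and 188 dpn and overlapped with that of 1 dpn, and the ranges of 28 and 188 dpn overlapped too. HDAC1 averaged 314 at 188 dpn and 1248 at 94 dpc, a 3.98-fold lower level (-1.99 ± 0.22, adjusted p = 1.35e-07). At 28 dpn the mean was 568, or 2.20-fold lower than at 94 dpc (-1.14 ± 0.22, adjusted p = 0.000398).

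In the steps between neighbouring stages HDAC1 was lower at 1 dpn than at 94 dpc, with means of 748 and 1248 (-0.74 ± 0.22, adjusted p = 0.0124), and lower at 188 dpn than at 28 dpn (-0.85 ± 0.22, adjusted p = 0.00953). The difference at 28 dpn against 1 dpn was -0.40 ± 0.22 (adjusted p = 0.218). The order of the levels was 94 dpc, 1 dpn, 28 dpn, 188 dpn, where 1 and 28 dpn did not differ beyond their spread. Within 1 dpn the 3 arrays with low 5′ signal read 508 to 632 and the other 3 read 674 to 1226. Without the 3 arrays of low ratio HDAC1 was at -0.35 at 1 dpn against 94 dpc (adjusted p = 0.30) and at -0.78 at 28 dpn against 1 dpn (adjusted p = 0.0313), so the interval of the first called fall depended on these arrays. The part of their 5′ signal in it was not tested. With centring the steps were -0.41 at 1 dpn against 94 dpc (adjusted p = 0.172) and -0.59 at 188 dpn against 28 dpn (adjusted p = 0.0854).

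**Figure D4:**
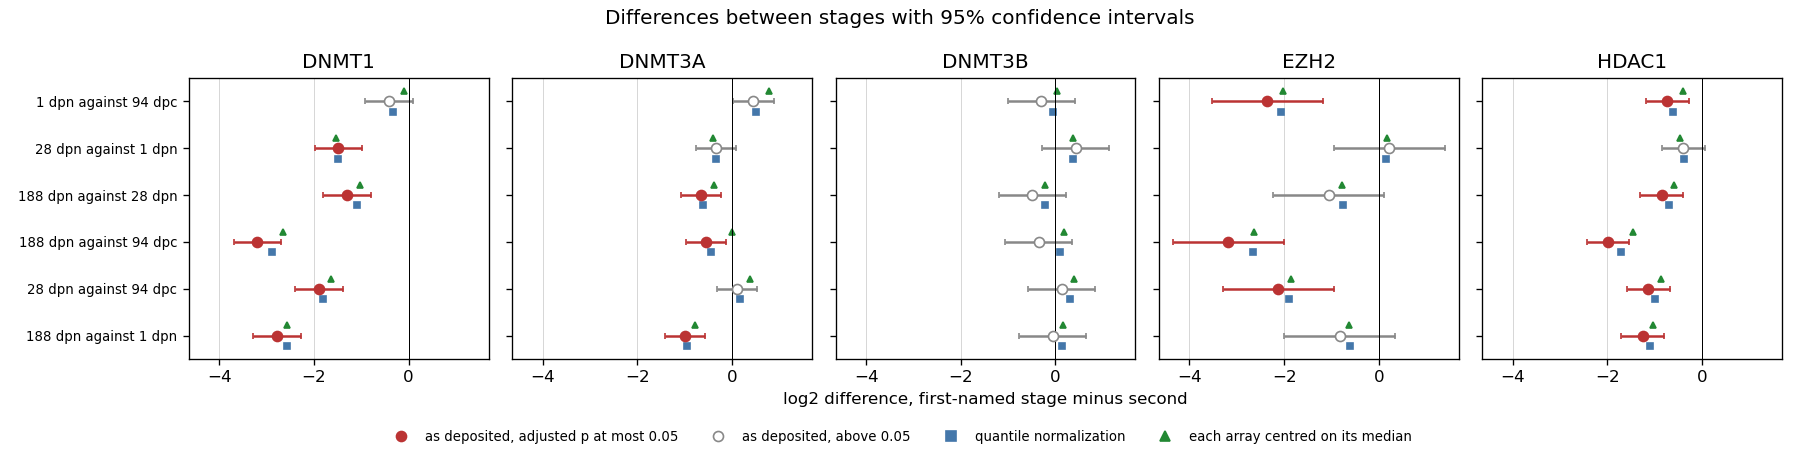
Log2 differences of the 5 genes in the 6 comparisons, the stage named first minus the stage named second, with 95% intervals. Red filled points are called at an adjusted p of at most 0.05 and open grey points are not, and blue squares and green triangles give the values after quantile normalization and after median centring. No called difference lies above 0, and DNMT1 at 188 dpn against 94 dpc stands at -3.20.

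The scaling of the arrays bears on all of these values. As deposited, the median difference of all probe sets was -0.29 at 188 dpn against 94 dpc, and it became 0.05 by quantile normalization or 0.25 by centring. For the other comparisons it was -0.15 at 1 dpn against 94 dpc, 0.02 at 28 dpn against 1 dpn, -0.18 at 188 dpn against 28 dpn, -0.14 at 28 dpn against 94 dpc and -0.20 at 188 dpn against 1 dpn. Relative to that median, the differences at 188 dpn against 94 dpc were -2.91 for DNMT1, -2.89 for EZH2, -1.70 for HDAC1, -0.26 for DNMT3A and -0.06 for DNMT3B. Among all called probe sets of that comparison 31.3% were higher as deposited, 48.9% with quantile normalization and 60.8% with centring. The same shares were 32.8%, 47.7% and 59.2% at 1 dpn against 94 dpc, 28.2%, 42.0% and 62.9% at 188 dpn against 28 dpn, 37.3%, 50.3% and 60.5% at 28 dpn against 94 dpc, and 40.4%, 48.8% and 54.8% at 188 dpn against 1 dpn. DNMT1, EZH2 and HDAC1 stayed called at 188 dpn against 94 dpc under all 3 scalings.

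Differences between genes within an array do not depend on a factor that scales the whole array. Set relative to its mean at 94 dpc, the log2 difference of DNMT1 minus DNMT3A ran from -0.71 to 0.64 in the fetuses. It ran from -1.89 to -0.37 at 1 dpn, from -2.77 to -1.14 at 28 dpn and from -2.99 to -2.34 at 188 dpn, with a mean of -2.65 at that age. By the brightest DNMT1 probe set, DNMT1 and DNMT3A therefore changed unequally. All animals of 28 and 188 dpn lay below all fetuses, while the range of 1 dpn overlapped with the fetal one. The 5′ signal also moved with stage, and its part in this difference was not tested. DNMT1 also changed more than HDAC1, with a mean of -1.20 and a range of -1.83 to -0.77 at 188 dpn, against -0.56 to 0.36 at 94 dpc. The difference of DNMT1 minus EZH2 was 1.09 to 3.65 at 1 dpn, with a mean of 1.94, against -0.33 to 0.47 at 94 dpc. At 28 dpn it was -1.05 to 2.15 with a mean of 0.23, and at 188 dpn -1.27 to 2.84 with a mean of -0.02. The ranges of 28 and 188 dpn thus overlapped with the fetal one, with EZH2 around background in the postnatal animals.

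DNMT1 and EZH2 are known to be higher in dividing cells, and genes of S phase and mitosis were measured beside them. Of 30 listed, 19 had a probe set. Of these 17 fell at 188 dpn against 94 dpc and 1, the replication helicase subunit MCM4, passed as higher with means of 57.4 and 23.0, both under background. The list median was -2.44 against -0.19 for all annotated genes, of which 30.2% were lower and 19.9% higher. In the arrays of 188 dpn the median level of the list was 52.7 to 70.4, under background, so the size of the falls to that stage is uncertain. CCNB2, a mitotic cyclin, was lower by at least 3.39-fold (adjusted p = 4.38e-06), CDC20, an activator of the anaphase-promoting complex, by at least 5.28-fold (adjusted p = 2.35e-07), and UBE2C, its ubiquitin-conjugating enzyme, by at least 10.4-fold (adjusted p = 3.54e-05). At 1 dpn against 94 dpc 15 of 19 fell and 0 rose (median -2.02), including STMN1, a microtubule regulator, at 2013 and 9836 (-2.29 ± 0.18, adjusted p = 1.20e-08). At 28 dpn against 1 dpn 7 of 19 rose and 0 fell (median 0.79), among them TOP2A, a topoisomerase of dividing cells, at 273 and 85.1 (1.68 ± 0.55, adjusted p = 0.0314). Finally, 12 fell and 0 rose at 188 dpn against 28 dpn (median -1.39). Over all annotated genes 20.7% were lower at 1 dpn against 94 dpc. The like shares were 13.3% higher at 28 dpn against 1 dpn and 14.3% lower at 188 dpn against 28 dpn.

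DNMT1, by its brightest probe set, and the S phase list did not move in step. Relative to 94 dpc, the difference of DNMT1 minus the S phase list median was 0.28 to 2.28 at 1 dpn, with a mean of 1.56, against -0.48 to 0.38 at 94 dpc. At 28 dpn it was -1.25 to -0.41, and at 188 dpn it was -1.18 to -0.10. On average the day-old animals thus had more DNMT1 relative to these genes than the fetuses, and those of 28 dpn had less. Each range, that of 188 dpn included, overlapped with the fetal one. The list median itself was 46.4 to 185 at 1 dpn, partly under background. At 188 dpn it was 52.7 to 70.4, under background in every array, so DNMT1 relative to these genes cannot be read at that stage. At 28 dpn against 1 dpn 7 S phase genes rose, and DNMT1 fell by its brightest probe set but did not pass by the next brightest (adjusted p = 0.226) or by the mean of all 4 (adjusted p = 0.605). EZH2 gave -3.37 to 0.97 at 1 dpn by the same measure, a range that spans 0 and includes values under background.

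Summed levels of the S phase genes and of some marker lists moved with stage as well. The summed level of the 19 S phase genes was 17685 to 22312 at 94 dpc, 3426 to 7998 at 1 dpn, 7603 to 10734 at 28 dpn and 3333 to 4442 at 188 dpn. STMN1 alone averaged 9836 at 94 dpc and weighs heavily in this sum. Such sums weigh each probe set by its signal, so they mostly follow the brightest ones and give no amounts of cells. Of 7 endothelial genes, all measured, 6 fell and 1 rose at 188 dpn against 94 dpc, and their sum was 6551 to 11649 at 94 dpc, 3919 to 6346 at 1 dpn, 6040 to 9046 at 28 dpn and 2732 to 3686 at 188 dpn. Of 5 fibroblast genes measured of 7 listed, 4 fell and 0 rose at 188 dpn against 94 dpc, and their sum was 38590 to 44579, 19124 to 52754, 17306 to 25752 and 12634 to 19944 in order of age. Of 3 genes of satellite cells and myoblasts measured of 5 listed, MYF5 and MYOD1, early myogenic factors, fell and MYF6, a factor of later myogenesis, rose. Their sum was 2934 to 4780, 1658 to 2592, 1836 to 3756 and 3234 to 8379 in order of age. At 188 dpn the MYF6 probe set gave most of it, with a mean of 4922 there, beside 266 for MYOD1 and 73.0 for MYF5. The rise of this sum at 188 dpn is thus that of MYF6, and not of MYF5 or MYOD1. Of the remaining marker lists, at 188 dpn against 94 dpc all 3 erythroid genes measured of 8 listed fell, 1 of 12 plasma protein genes fell, and none of 6 macrophage and leukocyte genes or 4 adipocyte genes passed. Over all annotated genes 30.2% were lower and 19.9% higher at 188 dpn against 94 dpc. No gene of these lists was at 0 in any array. All 15 skeletal muscle genes were higher at 188 dpn than at 94 dpc, with a median of 0.94 as deposited, 0.35 after quantile normalization and 1.47 after centring. The part of cell composition in the fall of DNMT1, EZH2 and HDAC1 was not tested.

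In the 188 dpn stage, animals 1 to 3 carried plasma protein genes at list medians of 1917 to 12600, against 27.9 to 106 in animals 4 to 6. DNMT1 was 142 to 171 in the first set and 81.5 to 165 in the other, DNMT3A was 1046 to 1357 and 725 to 1056, and HDAC1 was 248 to 425 and 285 to 302. Without animals 1 to 3 the differences at 188 dpn against 94 dpc were -3.37 for DNMT1 (adjusted p = 1.13e-07), -0.74 for DNMT3A (adjusted p = 0.0325), -3.10 for EZH2 (adjusted p = 0.000255) and -2.09 for HDAC1 (adjusted p = 6.26e-06). The 4 falls were thus as large or nearly as large without these arrays.

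Other subunits of PRC2 fell in part between 94 dpc and 1 dpn. Of 10 listed, 5 were measured, and at 1 dpn against 94 dpc 3 fell and 0 rose, with a median of -0.82 against -0.06 for all genes. Over all annotated genes 20.7% were lower and 17.1% higher in that comparison. MTF2, an accessory subunit that binds unmethylated CpG islands, was at 130 and 472 (-1.86 ± 0.31, adjusted p = 8.17e-05). RBBP7, a histone-binding subunit, was at 3221 and 6380 (-0.99 ± 0.14, adjusted p = 1.41e-05), and EED, the core subunit that reads trimethylated lysine 27, was at 629 and 1109 (-0.82 ± 0.13, adjusted p = 5.21e-05). EED rose again at 28 dpn against 1 dpn, with means of 1075 and 629 (0.77 ± 0.13, adjusted p = 0.000208), where EZH2 stood at 0.23 ± 0.57 and did not pass. The difference between the 2 genes was not tested. Leaving out the 3 low 5′ signal arrays of 1 dpn was examined for the genes of interest only. The 1 dpn differences of MTF2, RBBP7 and EED, and those of genes in the other lists, were not examined without these arrays. Lower at 188 dpn than at 94 dpc were MTF2 (-1.57 ± 0.31), JARID2, an accessory subunit, (-1.50 ± 0.19) and RBBP7 (-1.26 ± 0.14), and the list median was -1.26.

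Polycomb repressive complex 1, which ubiquitinates histone H2A, was read through 5 of 19 listed genes. Of these, 4 fell and 0 rose at 188 dpn against 94 dpc (median -1.23 against -0.19 for all genes). Over all annotated genes 30.2% were lower and 19.9% higher there. PCGF3, a subunit of a variant complex, was at 544 and 1491 (-1.45 ± 0.18, adjusted p = 8.18e-07), and RYBP, which defines variant complexes, was at 413 and 970 (-1.23 ± 0.20, adjusted p = 3.60e-05). RNF2, a catalytic subunit, was lower at 1 dpn than at 94 dpc by at least 3.79-fold (adjusted p = 0.000216), while RING1, its paralogue, was higher at 1633 and 1040 (0.65 ± 0.15, adjusted p = 0.00256). Neither was examined without the 3 low 5′ signal arrays, and RNF2 had an SD of 1.54 on the log2 scale at 1 dpn. The 1 dpn against 94 dpc median of this list was -0.26 as deposited, and it turned to 0.01 after quantile normalization and 0.06 after centring. Of 4 measured genes among H3K27 demethylases and the H2A deubiquitinase BAP1, 1 fell at 188 dpn against 94 dpc. This was ASXL1, the cofactor of BAP1, at 467 and 1109 (-1.25 ± 0.17, adjusted p = 3.60e-06).

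Among 18 measured genes of histone deacetylase and corepressor complexes, of 30 listed, 10 fell and 3 rose at 188 dpn against 94 dpc, and 8 fell and 1 rose at 1 dpn against 94 dpc. Of all annotated genes 30.2% were lower and 19.9% higher in the first comparison, and 20.7% were lower and 17.1% higher in the second. CHD3, a remodeller of NuRD, was at 123 and 484 at 188 dpn and 94 dpc (-1.98 ± 0.24, adjusted p = 4.30e-07), and MTA3, another NuRD subunit, was at 194 and 535 (-1.46 ± 0.17, adjusted p = 4.72e-07). HDAC2, the close paralogue of HDAC1, was lower at 1 dpn than at 94 dpc, at 256 and 624 (-1.28 ± 0.22, adjusted p = 0.000150). It rose at 28 dpn against 1 dpn, at 538 and 256 (1.07 ± 0.22, adjusted p = 0.00158), where HDAC1 was at -0.40 ± 0.22 and did not pass. Without the 3 low 5′ signal arrays of 1 dpn HDAC1 was called lower at this step (-0.78, adjusted p = 0.0313), a setting not examined for HDAC2. Whether HDAC1 and HDAC2 differed from each other was not tested. The list median at 188 dpn against 94 dpc was -0.54, against -0.19 for all annotated genes, and it was -0.34 after quantile normalization and -0.0028 after centring. At 1 dpn against 94 dpc the list median was -0.33 as deposited, -0.19 after quantile normalization and -0.0089 after centring.

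The list of DNA methylation and demethylation, without the 9 genes of interest, had 11 measured genes of 19. Of these, 4 fell and 2 rose at 188 dpn against 94 dpc, and at 1 dpn against 94 dpc 2 fell and 1 rose. These counts were near the shares over all annotated genes. Those were 30.2% lower and 19.9% higher in the first comparison, and 20.7% lower and 17.1% higher in the second. IDH2, a mitochondrial enzyme that makes the 2-oxoglutarate which TET enzymes use, rose at 1 dpn to 32876, against 7570 at 94 dpc (2.12 ± 0.14, adjusted p = 9.18e-10). LIG1, the replicative DNA ligase, was lower at 188 dpn at 85.8, against 273 at 94 dpc (-1.67 ± 0.42, adjusted p = 0.00258). GADD45G, a stress protein linked to DNA demethylation, was higher at 188 dpn than at 28 dpn, at 3207 and 1081 (1.57 ± 0.31, adjusted p = 0.00114). The list median at 188 dpn against 94 dpc was -0.33 as deposited, where that of all annotated genes was -0.19, and it was -0.07 after quantile normalization and 0.20 after centring, so no common direction can be given. Of 3 measured readers of methylated DNA, of 8 listed, MBD2 was higher at 188 dpn than at 94 dpc, at 804 and 343 (1.23 ± 0.21, adjusted p = 4.27e-05). ZBTB33 (-1.28 ± 0.24, adjusted p = 0.000129) and MBD1 (-0.73 ± 0.19, adjusted p = 0.00290) were lower. MBD2 has 3 probe sets, and for all genes of the lists only the brightest probe set was examined.

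Heterochromatin genes were read through 6 of 11, of which 4 fell and 1 rose at 188 dpn against 94 dpc. Over all annotated genes 30.2% were lower and 19.9% higher. The list median was -0.88 as deposited, -0.43 after quantile normalization and -0.35 after centring, where that of all annotated genes was -0.19 as deposited. CBX3, a heterochromatin protein 1 that binds methylated lysine 9 of histone H3, was at 819 and 1527 (-0.90 ± 0.21, adjusted p = 0.00129), and SUV39H2, a methyltransferase for that lysine, was higher at 350 and 166 (1.07 ± 0.40, adjusted p = 0.0379). Of 14 measured genes of the one-carbon and S-adenosylmethionine cycle, which supplies the methyl donor, 4 rose and 3 fell at 188 dpn against 94 dpc. The shares over all annotated genes are those given for the heterochromatin list. GAMT, which methylates guanidinoacetate to creatine, was at 9025 and 573 (3.98 ± 0.32, adjusted p = 1.39e-09). AHCY, which clears the by-product of methylation, rose at 1 dpn, at 1128 against 632 at 94 dpc (0.84 ± 0.15, adjusted p = 0.000234). TYMS, which makes thymidylate and also stands in the S phase list, was lower at 188 dpn than at 94 dpc by at least 2.76-fold (adjusted p = 0.00265). GNMT and MAT1A, enzymes of this cycle known from liver, rose at 188 dpn against 28 dpn by at least 3.22-fold and 3.34-fold (adjusted p = 0.00201 and 0.0475), in the stage where 3 arrays carried plasma protein genes at a high level, whose part in these rises was not tested.

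**Figure D5:**
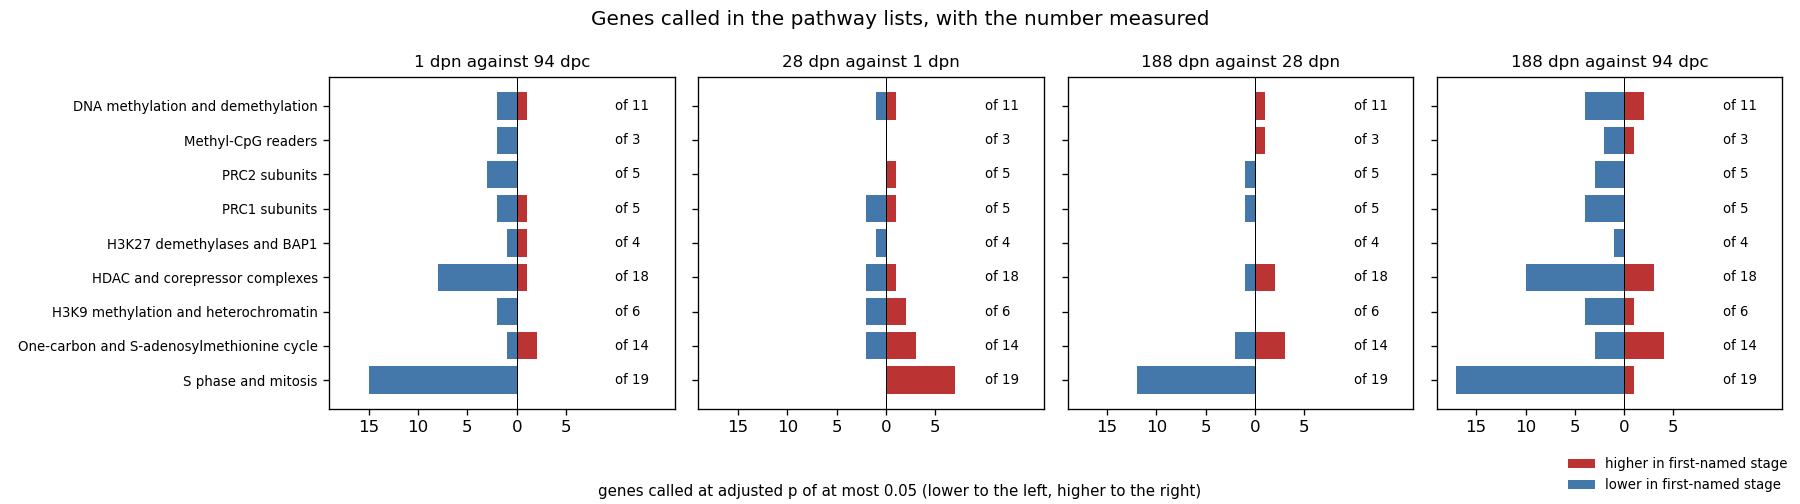
Number of measured genes called lower (bars to the left) and higher (bars to the right) in each of 9 gene lists, for 4 comparisons, with the number of measured genes beside each list. At 188 dpn against 94 dpc the S phase list has 17 of 19 genes lower, and the PRC2 and PRC1 lists have 3 and 4 of 5 lower.

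For each gene of interest that passed the F test, the 3 annotated genes nearest in profile were found among 5481 genes with a mean above background, by the root mean square difference of gene-centred log2 values over the 24 arrays. For DNMT1, whose own values spread by 1.32 about their mean, they were RBFOX2, a splicing factor, at 0.43, ANKRD29 at 0.46 and ALDH18A1, an enzyme of proline synthesis, at 0.51. RBFOX2 averaged 5845, 5089, 2248 and 927 in order of age. For DNMT3A, with a spread of 0.47, they were SPARC, a matrix glycoprotein, at 0.25, LOC102159087 at 0.26 and UBE2F at 0.27. SPARC averaged 35769, 55321, 43220 and 24406 in order of age. All 3, like DNMT3A, had their highest mean at 1 dpn, where DNMT3A was higher in the 3 low 5′ signal arrays. The part of these arrays in the nearness of the profiles was not tested. For HDAC1, with a spread of 0.79, they were RALB and ARL3, small GTPases, at 0.33 and 0.34, and LOC100627892 at 0.34. For EZH2, with a spread of 1.496, the nearest were SLC2A3, a glucose transporter, at 0.85, TSPAN12 at 0.87 and DLC1 at 0.88, distances that include the scatter of EZH2 around background.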

How the data were processed

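The authors deposited linear signal intensity made with GCOS 1.1.1, per the submitters' processing notes, 1 value per probe set and array. Per the labels' protocols, RNA was isolated with TRI Reagent, DNase-treated, cleaned on RNeasy columns, and 0.5 µg was labelled with biotin. Arrays had been scaled, since their means after trimming 2% at either end were 498 to 499 in every array. Raw scans were not used, and the number of arrays limits the precision.

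Of 24118 probe sets, 183 controls were left out. The log2 intensities, with nothing added, were fitted with limma 3.58.1 (lmFit, eBayes; R 4.3.3; data.table, version 1.17.8). The model held the 4 stages over the 24 arrays and left 20 residual degrees of freedom. Tests were two-sided and Benjamini-Hochberg adjusted over the 23935 probe sets kept. The fit was tested on simulated data. Tables and figures used Python 3.11.15, pandas 2.3.3, numpy 2.4.6, scipy 1.17.1 and matplotlib 3.10.9. Low values were not filtered, although 39.2% of the probe sets averaged below background. Where 1 of 2 stage means was under background, the fold is the bright mean over the dim stage with values under background raised to it.

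Symbols came from the platform annotation: 10069 tested probe sets had 1 symbol and 198 several. The genes of interest and the 9 pathway and 8 marker lists were chosen with earlier results of these data known. From each pathway list up to 3 called genes per comparison with the largest difference, and the brightest gene, could be named. Alternatives were quantile normalization, median centring, offsets of 16 and 64, no dimmest 30%, control probe sets kept, mean of all probe sets, other eBayes settings, array weights, only the 2 stages compared, a threshold of 0.01 and each animal left out. Leaving out the 3 low 5′ signal arrays of 1 dpn or the 3 of 188 dpn with high plasma protein genes, and raising values to background, were chosen after seeing the data. Animal numbers follow accession order and carry no pairing.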

Additional observations from a re-analysis of the deposited data

Results flagged for a closer look

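In 2 of 32 groups of 6 animals, over the 8 probe sets and 4 stages, a single animal lay far from the other 5 by Dixon's criterion, for which chance gives about 1 in 20 groups, or 5%. DNMT3B of 1 dpn animal 4 stood at 19.3, against 78.3 to 142 in the other 5 animals of that stage. EZH2 of 1 dpn animal 3 stood at 15.5, against 74.9 to 115 in the other 5. Both low values were under the background level of 74.7.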

How the results depend on the processing

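Across 1140 combinations of gene, comparison and alternative, 1109 stayed on their side of the threshold, 27 lost the call, 4 gained one and 0 called differences turned round. The number of genes called at 1 dpn against 94 dpc was 2 and became 1 without the 3 low 5′ signal arrays and 1 at an adjusted p of 0.01. At 28 dpn against 1 dpn it was 1 and became 0 when the probe sets of a gene were averaged and 2 without the 3 low 5′ signal arrays. At 188 dpn against 28 dpn it was 3 and became 1 with each array centred on its median. The cause was not tested. With each animal left out in turn the counts ranged from 2 to 3 at 1 dpn against 94 dpc, 2 to 3 at 188 dpn against 28 dpn and 3 to 4 at 188 dpn against 94 dpc. They stayed at 1 at 28 dpn against 1 dpn, 3 at 28 dpn against 94 dpc, 3 at 188 dpn against 1 dpn and 4 over the 4 stages. DNMT3A lost its calls at 188 dpn against 28 dpn and against 94 dpc in 8 of 24 single omissions each, and gained one at 1 dpn against 94 dpc without 1 dpn animal 5 (0.55, adjusted p = 0.0469), without animal 6 (0.55, 0.0470) or with centring (0.78, 0.00711). No paired analysis was made, because each animal was measured at 1 stage only and the labels do not name the mothers. Signal over background limits DNMT3B, postnatal EZH2 and the 2 dimmer DNMT1 probe sets.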
